A study of Mus musculus with 28 samples.

Results

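The 10 genes described here are used as marks of tissue-resident macrophages in mouse skin: Lyve1, Timd4, Msr1, Folr2, Mrc1, Cd163, F13a1, Cbr2, Adgre1 and Csf1r. They were taken by gene name from both deposited count tables and joined by Ensembl identifier, and 10 of 10 were found among 51976 genes present in both. The members were chosen by name, in a list drawn up with results of these libraries in view, and the entry that lists them states no measured value. Lyve1, Timd4 and Msr1 are among the 9 genes called between Vsir-/- and WT skin after UVB, so that contrast is treated as the one the list was selected on: its values are given as a description. The working name of the list, scavenger receptors, covers only part of it, since F13a1 and Cbr2 encode enzymes and Adgre1 and Csf1r mark macrophages in general.

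Resident macrophages of the dermis are long-lived cells that take up dying cells, modified lipoproteins and matrix fragments through receptors on their surface. Their survival depends on the receptor encoded by Csf1r and its ligands Csf1 and Il34, and subsets near vessels are known for Lyve1, Timd4 and Folr2. Several of these genes are read in other cells of skin too: Lyve1 in lymphatic endothelium, Adgre1 and Csf1r in Langerhans cells and monocytes, and F13a1 in platelets. VISTA, the product of Vsir, is an immune checkpoint protein found on myeloid cells.

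Bulk RNA-seq was done on skin of 12-week-old female mice that were shaved and depilated 5 days before either 500 mJ/cm² of UVB or no exposure. Titles and design text place harvest 3 hours after UVB, while the treatment text says 1 day, and this difference is unresolved. In the whole-body experiment, WT mice and Vsir-/- mice (KO), a whole-body knockout, gave 3 libraries in each of the groups WT_NoUV, WT_UV, KO_NoUV and KO_UV. In the keratinocyte experiment, Vsirfl/fl mice whose labels name no Cre (FL) and K14creVsirfl/fl mice (cKO), whose keratin 14 promoter drives Cre in basal keratinocytes and related epithelia, gave 4 libraries in each of FL_NoUV, FL_UV, cKO_NoUV and cKO_UV. All mice of the keratinocyte experiment thus carry the floxed alleles, controls included. The design text calls the libraries of a group biological replicates, but no label ties each library to 1 mouse. The p-values therefore measure the spread between these libraries.

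Total counts per library lay between 30470828 and 43837915 for the whole-body experiment and between 7117198 and 31138604 for the keratinocyte experiment, where 2 libraries (FL_NoUV replicate 1 and cKO_UV replicate 3) held 7117198 and 7509742 counts. Vsir was lower in KO than in WT skin without UV (6.14 ± 0.951 against 38.4 ± 6.65 CPM, mean ± SD, n = 3 each) and after UV (2.99 ± 0.916 against 22.1 ± 1.88 CPM), with adjusted p = 0.00047 and 0.000332. It was not called between cKO and FL skin, at log2 differences of 0.41 without UV and -0.07 after UV (adjusted p = 0.923 and 0.986), so whole-skin Vsir gives no check of the cKO labels. Keratinocyte genes were abundant in all libraries, but fibroblast, muscle and fat genes were present too, so the libraries hold whole skin rather than epidermis alone. WT_NoUV replicate 3 and WT_UV replicate 3 stood apart by growing hair follicle genes (scores of 2.64 and 2.67 log2 units above the experiment's mean, the other 10 libraries between -1.28 and 0.12), and in the keratinocyte experiment that score spread from -2.93 to 5.52.

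Levels are given in CPM, the count of a gene relative to its library total, after scaling by the trimmed mean of M-values (TMM), and fold changes are log2 ratios from edgeR's quasi-likelihood fit, with Benjamini-Hochberg adjusted p over all genes tested. A gene is called at an adjusted p under 0.05. All 10 members passed the filter on low counts in both experiments. They follow each other over libraries (median Pearson's r of 0.71 and 0.79, described below), so a sign shared by all 10 is not 10 separate results.

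Per kilobase of gene length, the scale on which genes can be compared with each other, Mrc1 stood highest in WT_NoUV skin at 33.9 ± 8.71 CPM per kb (SD, n = 3). It was followed by Cbr2 at 27.3 ± 16, F13a1 at 24.1 ± 7.3, Csf1r at 16.6 ± 4.21, Adgre1 at 14.5 ± 4.37 and Cd163 at 13.8 ± 3.81 CPM per kb, and the libraries of each of these overlapped those of the next. Folr2 at 10.5 ± 4.73 and Lyve1 at 6.46 ± 2.5 came next, and Msr1 at 1.53 ± 0.52 and Timd4 at 0.6 ± 0.175 CPM per kb were lowest. The order was different in KO_UV skin, where Lyve1 was first at 74.3 ± 4.96 CPM per kb, next to Mrc1 at 68.8 ± 15.2 and F13a1 at 64.9 ± 20.3, which did not differ beyond their spread. In the keratinocyte experiment, which was scaled separately, Mrc1, Cbr2, F13a1 and Csf1r held the first 4 places in that order in all 4 groups. Timd4 was last there in all 4 groups, from 0.451 ± 0.294 CPM per kb in FL_NoUV to 1.43 ± 0.412 in FL_UV (n = 4 each).

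**Figure D1:**
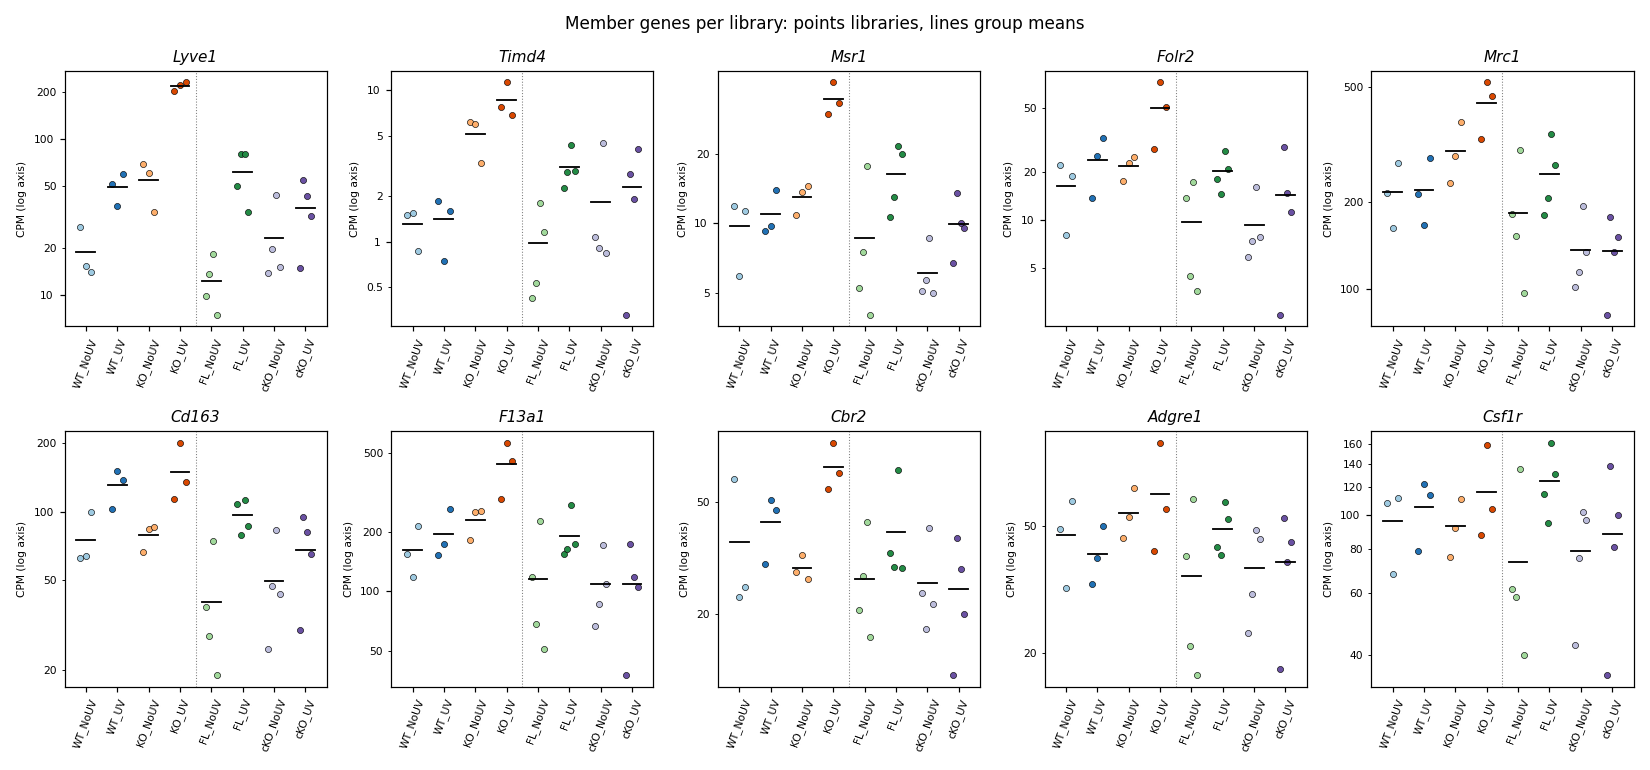
CPM of the 10 members in each of the 28 libraries on log axes, 1 panel per gene. Points are libraries, horizontal lines are group means, and the dotted line separates the whole-body experiment from the keratinocyte experiment. The 3 KO_UV libraries stand above all other whole-body libraries for Lyve1 (201 to 229 CPM), Timd4 (6.91 to 11.3 CPM) and Msr1 (29.8 to 41 CPM).

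Lyve1 (ENSMUSG00000030787, chr7:110850607-110863239, minus strand, GRCm38) encodes a hyaluronan receptor. Its levels were 27.3, 15.3 and 14 CPM in WT_NoUV, 51, 37.1 and 59.4 CPM in WT_UV, 68.4, 59.9 and 34.1 CPM in KO_NoUV, and 201, 221 and 229 CPM in KO_UV. The KO_UV libraries were the highest of the 12, the WT_NoUV libraries were the lowest, and WT_UV and KO_NoUV overlapped each other. In the keratinocyte experiment Lyve1 read 9.91, 13.7, 18.2 and 7.49 CPM in FL_NoUV and 49.7, 79.7, 80.2 and 34.2 CPM in FL_UV. It read 13.8, 19.6, 43.7 and 15 CPM in cKO_NoUV and 14.8, 54, 43.2 and 32.1 CPM in cKO_UV. FL_NoUV and FL_UV did not overlap, whereas the cKO groups did.

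Timd4 (ENSMUSG00000055546, chr11:46810800-46844332, plus strand), the phosphatidylserine receptor TIM-4 by which macrophages bind apoptotic cells, was the rarest member. It read 1.5, 1.55 and 0.866 CPM in WT_NoUV, 1.87, 0.744 and 1.59 CPM in WT_UV, 6.15, 6 and 3.3 CPM in KO_NoUV, and 7.76, 11.3 and 6.91 CPM in KO_UV. Every KO library was above every WT library, with and without UV. These values rest on 27 to 324 counts per library. In the keratinocyte experiment Timd4 read 0.425, 0.532, 1.81 and 1.16 CPM in FL_NoUV, 2.26, 2.89, 4.38 and 2.95 CPM in FL_UV, 1.08, 0.904, 4.48 and 0.837 CPM in cKO_NoUV, and 0.329, 2.8, 1.92 and 4.12 CPM in cKO_UV. The lowest of these rested on 3 counts in the shallow FL_NoUV replicate 1 and on 8 counts in cKO_UV replicate 1, and FL was again the genotype whose UV and NoUV libraries did not overlap.

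Msr1 (ENSMUSG00000025044, chr8:39581685-39642673, minus strand), the class A scavenger receptor for modified lipoproteins, read 11.9, 5.93 and 11.3 CPM in WT_NoUV and 9.3, 9.76 and 13.9 CPM in WT_UV. It read 10.9, 13.7 and 14.6 CPM in KO_NoUV and 29.8, 41 and 33.5 CPM in KO_UV. Only the KO_UV libraries stood apart, and the other 3 whole-body groups overlapped. In the keratinocyte experiment its levels were 5.24, 7.53, 17.7 and 4.01 CPM in FL_NoUV, 10.7, 13, 21.6 and 20.1 CPM in FL_UV, 5.1, 5.66, 8.63 and 4.98 CPM in cKO_NoUV, and 6.75, 13.5, 10 and 9.58 CPM in cKO_UV. FL_NoUV overlapped FL_UV through its replicate 3.

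Promoter sequence was matched for 6 of the 10 members in the RefSeq table of GRCm38.p6, and the windows before the starts of Timd4, Folr2 and F13a1 are shown because Folr2 and F13a1 followed each other closely over libraries and Timd4 differed most between genotypes. Each window holds the 250 bases before a RefSeq start on the strand of the gene, at chr11:46810549-46810798 (plus) for Timd4, chr7:101857191-101857440 (minus, the first of 2 starts) for Folr2 and chr13:37050245-37050494 (minus, the first of 2 starts) for F13a1. Capitals mark matches on either strand to 3 motifs: GGAA and GAAA separated by any 2 bases (a site shape bound by ETS and IRF factors together), GAGGAA (a core bound by PU.1, encoded by Spi1) and TGCTGA (a partial site of MAF factors).
Timd4: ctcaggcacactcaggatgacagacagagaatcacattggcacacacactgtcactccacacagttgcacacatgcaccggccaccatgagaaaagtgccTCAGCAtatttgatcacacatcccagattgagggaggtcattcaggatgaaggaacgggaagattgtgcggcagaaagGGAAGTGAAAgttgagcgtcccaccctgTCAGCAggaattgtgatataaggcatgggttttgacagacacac
Folr2: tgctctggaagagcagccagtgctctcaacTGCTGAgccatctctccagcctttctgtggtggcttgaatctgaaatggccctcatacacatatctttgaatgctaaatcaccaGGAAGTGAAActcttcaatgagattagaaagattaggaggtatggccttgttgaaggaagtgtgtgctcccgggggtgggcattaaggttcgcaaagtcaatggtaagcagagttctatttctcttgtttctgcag
F13a1: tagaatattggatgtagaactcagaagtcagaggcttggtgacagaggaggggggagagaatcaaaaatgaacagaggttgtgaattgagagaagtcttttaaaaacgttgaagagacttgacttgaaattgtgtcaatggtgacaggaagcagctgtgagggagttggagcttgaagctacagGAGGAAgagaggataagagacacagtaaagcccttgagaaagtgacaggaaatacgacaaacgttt

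The ETS and IRF shape was found 72 to 63 bases before the start of Timd4 and 136 to 127 bases before that of Folr2, and 2.3% of all 32851 promoter windows of the same length hold it. It was added after the Timd4 window had been read, so its match there is a description only. GAGGAA was found in Mrc1, F13a1 and Cbr2 and is held by 23.3% of all windows, and TGCTGA was found in Timd4 and Folr2 and is held by 16.1%. The motifs do not overlap each other in these windows. A match in letters is no evidence of binding.

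Of the other uptake receptors, Folr2 (ENSMUSG00000032725, chr7:101839988-101857194, minus strand), a folate receptor, ranged from 7.98 to 32.4 CPM in WT libraries and reached 27.7, 72.3 and 50.9 CPM in KO_UV. In KO_NoUV it lay between 17.4 and 24.8 CPM. Mrc1 (ENSMUSG00000026712, chr2:14229392-14332057, plus strand), the mannose receptor CD206, lay between 162 and 283 CPM in WT libraries and reached 330, 518 and 466 CPM in KO_UV. In KO_NoUV it lay between 233 and 378 CPM. Cd163 (ENSMUSG00000008845, chr6:124304656-124330527, plus strand), the receptor for haptoglobin bound to haemoglobin, read 62.7, 63.6 and 99.2 CPM in WT_NoUV and 103, 151 and 138 CPM in WT_UV. In KO skin Cd163 read 66.4, 84.1 and 85.3 CPM without UV and 113, 201 and 135 CPM after UV, so both genotypes covered nearly the same ranges.

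The enzymes were F13a1 (ENSMUSG00000039109, chr13:36867178-37050244, minus strand), the A chain of coagulation factor XIII, and Cbr2 (ENSMUSG00000025150, chr11:120729489-120732114, minus strand), a carbonyl reductase. F13a1 lay between 118 and 261 CPM in WT libraries, between 182 and 254 CPM in KO_NoUV, and at 292, 564 and 457 CPM in KO_UV. Cbr2 lay between 22.9 and 60.7 CPM in WT libraries, between 26.6 and 32.3 CPM in KO_NoUV, and at 55.9, 81.7 and 63.5 CPM in KO_UV. Adgre1 (ENSMUSG00000004730, chr17:57358691-57483527, plus strand), which encodes the macrophage surface protein F4/80, and Csf1r (ENSMUSG00000024621, chr18:61100598-61132149, plus strand) overlapped among all 4 whole-body groups. Their group means ran from 41 to 63.3 CPM for Adgre1 and from 93 to 117 CPM for Csf1r.

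Without UV, KO skin held more Lyve1 and Timd4 RNA than WT skin in every library, but neither passed the adjusted test. Lyve1 averaged 54.1 ± 17.9 CPM in KO_NoUV against 18.9 ± 7.29 in WT_NoUV (log2 difference 1.52, 95% interval 0.9 to 2.14, adjusted p = 0.0917). Timd4 averaged 5.15 ± 1.61 against 1.3 ± 0.38 CPM (log2 difference 1.98, interval 1.17 to 2.78, adjusted p = 0.0917). These 2 of the 10 members did not overlap between genotypes, against 12.8% of all genes tested that stood higher without overlap. In bulk RNA, more cells of a type and more RNA per cell cannot be told apart.

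The other 8 members lay between log2 differences of -0.32 (Cbr2) and 0.5 (F13a1) without UV, and Csf1r was at -0.04 with an interval of -0.59 to 0.51. By edgeR, 0 of 10 members passed, while 2 were under 0.05 without adjustment and DESeq2 called 2, Lyve1 and Timd4. The background was 0.00982% of 20365 genes called by edgeR, that is 2 genes, both lower in KO (0% higher), 15.8% under 0.05 without adjustment and 2.87% called by DESeq2. These libraries are not those of the contrast after UV, but the list may have been drawn up with both in view, so the values are no independent support. Other tissue genes differed between the same libraries: summed keratinocyte genes ranged from 11900 to 15500 CPM in KO_NoUV and from 21500 to 33300 CPM in WT_NoUV, and summed muscle genes from 11800 to 16400 CPM and from 5590 to 10000 CPM. Their part in the Lyve1 and Timd4 values was not tested.

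After UV, all 10 members stood above WT in KO skin, with a median log2 difference of 1.04 against 0.03 over all genes tested. Of those 20365 genes, 10713 stood above WT. Lyve1 averaged 217 ± 14.5 CPM in KO_UV and 49.2 ± 11.3 in WT_UV (log2 difference 2.14, interval 1.52 to 2.77), Timd4 8.65 ± 2.31 and 1.4 ± 0.587 CPM (2.62, 1.81 to 3.44), and Msr1 34.8 ± 5.72 and 11 ± 2.51 CPM (1.66, 1.1 to 2.22). F13a1, Folr2 and Mrc1 followed at log2 differences of 1.16, 1.09 and 0.99, Cbr2 and Adgre1 at 0.65 and 0.63, and Cd163 and Csf1r at 0.19 and 0.15. Called members were 3 of 10, beside a background of 0.0442% of genes called (0.0393% called higher), and 6 of 10 did not overlap, beside 12% of genes higher without overlap. All 3 calls were lost without any 1 of WT_UV replicate 1 or 2, KO_UV replicate 2 or 3 or KO_NoUV replicate 2. Timd4 and Msr1 were lost without KO_NoUV replicate 1 or KO_UV replicate 1, Timd4 without WT_UV replicate 3, and Msr1 without KO_NoUV replicate 3 or with RLE scaling (relative log expression). As this contrast is the one the list is taken to have been selected on, nothing is read from these counts. Summed fibroblast genes were 11800 to 15200 CPM in KO_UV and 6960 to 9540 CPM in WT_UV, and summed keratinocyte genes 9270 to 15500 and 18200 to 28900 CPM, and their part was not tested.

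**Figure D2:**
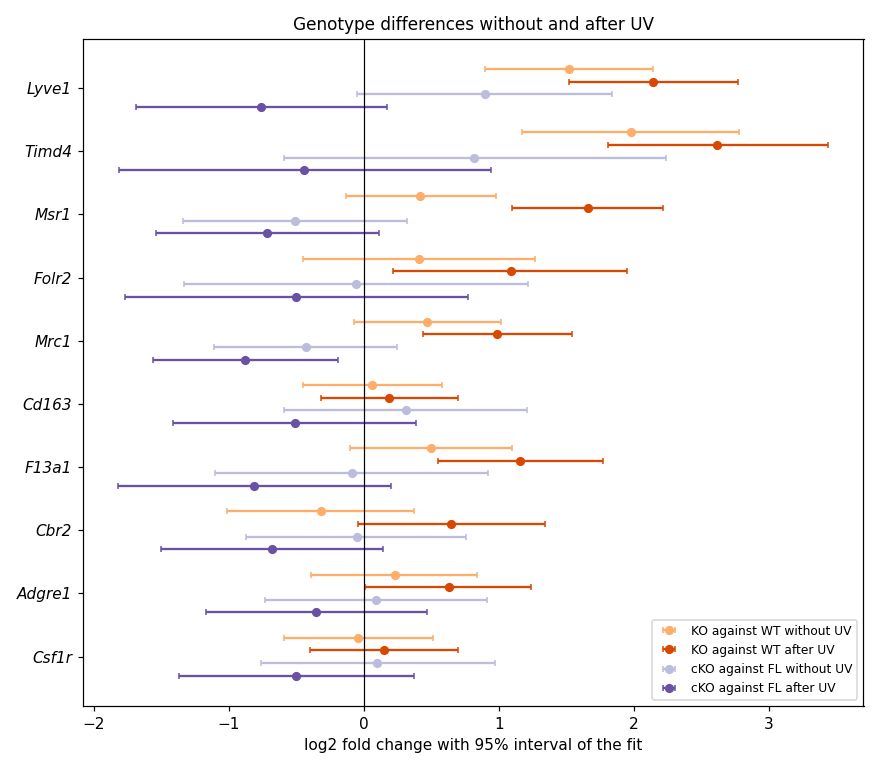
Log2 fold changes between genotypes for the 10 members, with 95% intervals of the edgeR fit, without and after UV in both experiments. After UV, KO against WT values run from 0.15 (Csf1r) to 2.62 (Timd4), and cKO against FL values run from -0.88 (Mrc1) to -0.35 (Adgre1).

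The members were also set against Csf1r in the same library, which serves here as the unit. Whether Csf1r measures the general macrophage signal in these libraries was not tested. Lyve1 stood at 90.1, 65.3 and 30.6 CPM per 100 CPM of Csf1r in KO_NoUV against 25.3, 22.6 and 12.6 in WT_NoUV, and at 229, 139 and 220 in KO_UV against 64.5, 30.2 and 52.2 in WT_UV. Mrc1 stood at 307, 315 and 339 in KO_NoUV against 199, 239 and 244 in WT_NoUV, and at 377, 327 and 448 in KO_UV against 270, 136 and 249 in WT_UV. Neither gene overlapped between genotypes on this scale in either condition. The ratio of means was 3.07 without UV and 4.01 after UV for Lyve1, and 1.41 and 1.76 for Mrc1.

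On the same relative scale Timd4 (3.95-fold and 5.17-fold), Msr1 (1.41-fold and 2.89-fold), Folr2, F13a1 and Adgre1 were also higher in KO without overlap in both conditions. Cd163 overlapped in both conditions, at ratios of 1.06 and 1.03, and Cbr2 overlapped without UV at 0.853 and did not after UV at 1.46. Without overlap, 7 of 9 members stood higher in KO without UV, 8 of 9 after UV and 7 of 9 in both, beside 4.24%, 3.42% and 1.4% of all genes on this scale. No test was made on these ratios, which share Csf1r as denominator and, after UV, the libraries the list was selected on. In plain CPM the shares over all genes were 12.8% without UV and 12% after UV. Dividing by Csf1r changes that share itself, and members follow Csf1r to unlike degrees (whole-body r from 0.04 for Timd4 to 0.8 for Folr2). The shares are therefore no like background for the members, and nothing is read from these counts.

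**Figure D3:**
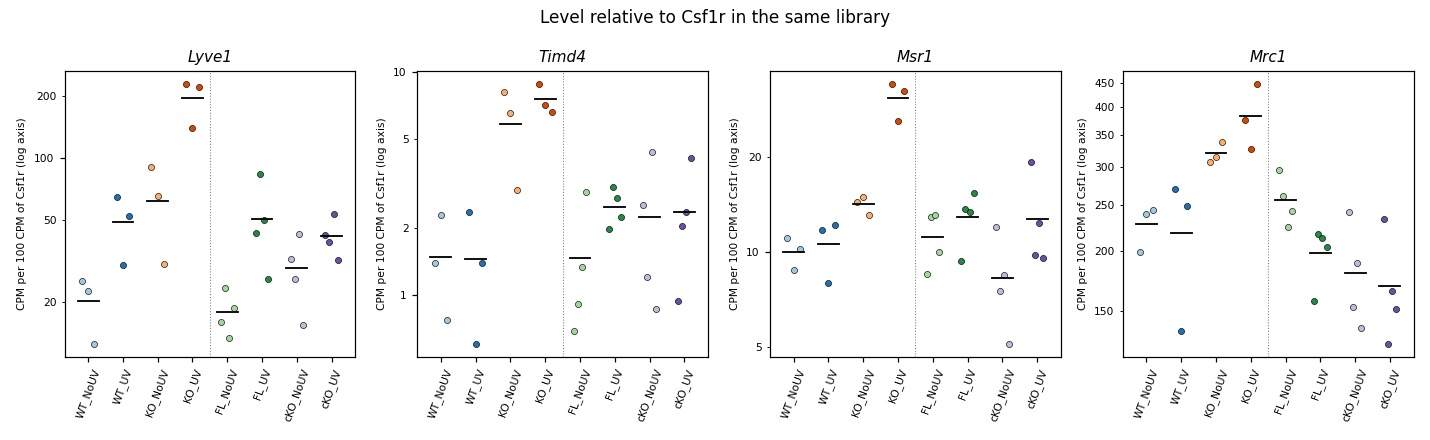
Lyve1, Timd4, Msr1 and Mrc1 as CPM per 100 CPM of Csf1r in the same library, on log axes, for the 28 libraries. Points are libraries and lines are group means. Lyve1 lies between 139 and 229 in KO_UV and between 30.2 and 64.5 in WT_UV, and the keratinocyte groups overlap between genotypes.

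Lyve1 was higher after UV in both whole-body genotypes, and no difference between the genotypes' responses passed the test. Hoxc10, a gene of body position described below, separated the same UV and NoUV libraries, and the part of the sampled site was not tested. In WT skin Lyve1 rose by a log2 value of 1.38 (interval 0.76 to 1.99, adjusted p = 0.00565) and Cd163 by 0.8 (0.29 to 1.31, adjusted p = 0.0334), with both higher in 3 of 3 UV libraries. These were 2 of 10 members called, beside 18.7% of genes called and 8.91% called higher, and the same 2 did not overlap, beside 14.5% of genes. The other 8 lay between -0.2 (Adgre1) and 0.54 (Folr2). The Lyve1 call was lost without WT_NoUV replicate 3 and WT_UV replicate 3, the libraries rich in hair follicle genes (1.07, adjusted p = 0.0599). The Cd163 call was lost without any 1 of WT_NoUV replicate 1 or 2 or WT_UV replicate 2 or 3, at adjusted p from 0.076 to 0.115.

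In KO skin Lyve1 rose by 2 (interval 1.38 to 2.62, adjusted p = 0.000579) and Msr1 by 1.41 (0.86 to 1.97, adjusted p = 0.00219). Folr2 rose by 1.22 (adjusted p = 0.0447), Cbr2 by 1.21 (0.0176), and Cd163 and F13a1 each by 0.93 (0.0144 and 0.0293). These were 6 of 10 members, beside 22.4% of genes called and 11.3% called higher, and 7 of 10 did not overlap, beside 25.3% of genes. Timd4 did not overlap either, but at 0.74 it was not called (adjusted p = 0.148), and Mrc1, Csf1r and Adgre1 lay at 0.55, 0.33 and 0.2. The median of the members was 0.93, against 0.02 over all genes tested. The UV libraries of both genotypes are also those of the contrast used for selection.

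Lyve1 and Msr1 kept their calls in KO skin whichever library was left out. The KO_UV libraries are also part of the contrast used for selection, so these kept calls are no independent support. Without KO_NoUV replicate 1 or without KO_UV replicate 2, Folr2, Cd163, F13a1 and Cbr2 were no longer called (adjusted p from 0.0617 to 0.202), which left 2 members. Leaving out KO_NoUV replicate 3 removed Folr2, F13a1 and Cbr2 (0.0651 to 0.0897), and leaving out KO_NoUV replicate 2 or KO_UV replicate 3 removed Folr2 and F13a1 (0.0655 to 0.107). Folr2 was also lost without WT_NoUV replicate 1, WT_NoUV replicate 3 or WT_UV replicate 2 (0.0519 to 0.0638).

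The KO response minus the WT response was above 0 for all 10 members, with a median of 0.64 against 0.02 over all genes, but both responses share the libraries after UV on which the list was selected. It was above 0 for 11010 of all 20365 genes. Msr1 had the widest gap at 1.24 (interval 0.46 to 2.02), then Cbr2 at 0.97 (-0.01 to 1.95), and Lyve1 stood at 0.62 (-0.23 to 1.48). By edgeR, 0 of 10 members and 0% of genes were called, 313 genes (1.54%) and 1 member were under 0.05 without adjustment, and DESeq2 called 0. Hoxc10, a homeobox gene read according to position along the body and singled out after its values were seen, was at 0 to 0.0579 CPM in the 6 whole-body libraries without UV and at 4.63 to 7.74 CPM in the 6 after UV. It separated UV from NoUV libraries in both genotypes. Any difference of sampled site therefore cannot be told apart from UV here, and its part in the UV responses was not tested.

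**Figure D4:**
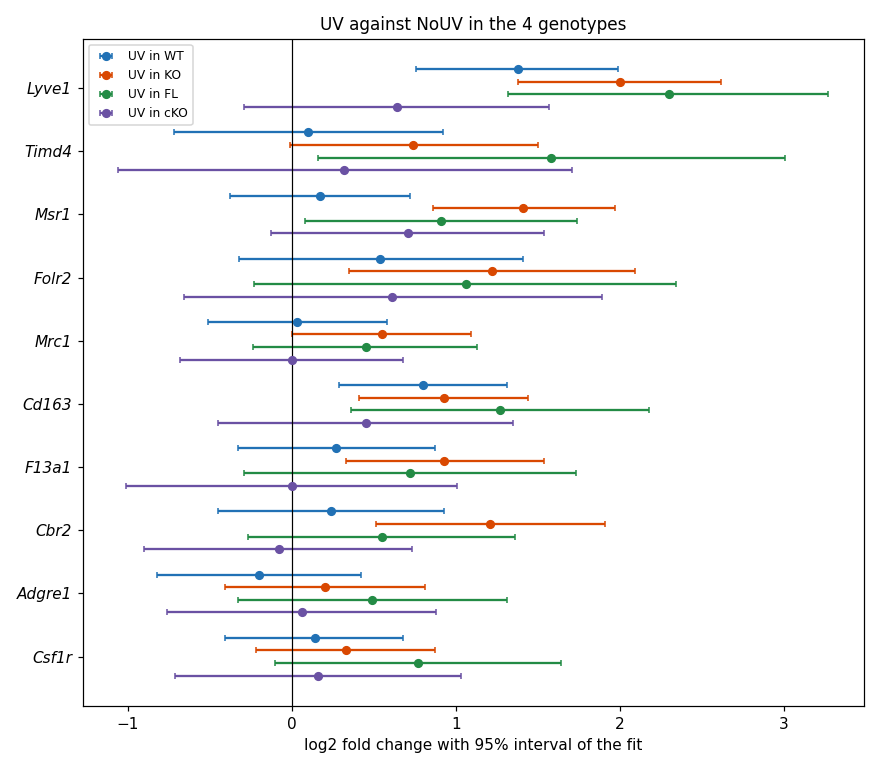
Log2 fold changes of the 10 members after UV in WT, KO, FL and cKO skin, with 95% intervals of the edgeR fit. Lyve1 is at 1.38, 2, 2.3 and 0.64 in these genotypes, and the cKO intervals all include 0.

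In the floxed controls of the keratinocyte experiment Lyve1 rose after UV. These libraries are not those of KO against WT, but the list may have been drawn up with them in view too, so their values are no independent support. Lyve1 went from 12.3 ± 4.67 CPM in FL_NoUV to 61 ± 22.9 CPM in FL_UV (n = 4 each, log2 value 2.3, interval 1.32 to 3.27, adjusted p = 0.00688), and the call held whichever library was left out. Timd4 and Cd163 did not overlap either, at 1.58 (interval 0.16 to 3.01, adjusted p = 0.169) and 1.27 (0.36 to 2.18, adjusted p = 0.085). All 10 members were above 0, with a median of 0.84 against 0.01 over all genes, and 10051 of all 19718 genes were above 0. Of the 10, 1 was called, beside 7.62% of genes called and 3.52% called higher, and 3 did not overlap, beside 6.67%. Without FL_NoUV replicate 3, Msr1 and Cd163 were called too (1.55 and 1.77, adjusted p = 0.012 and 0.0226). Genes of other cells lay above 0 in the same comparison: 6 of 6 muscle genes (median 0.97), 6 of 6 fat genes (0.84), 7 of 7 fibroblast genes (0.71) and 8 of 8 recruited monocyte genes (0.93), while 0 of 7 keratinocyte genes did (-0.4). Their part in the members' values was not tested.

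In cKO skin 0 of 10 members passed after UV by edgeR, 0 were under 0.05 without adjustment and DESeq2 called 0, beside 9.72% of genes called by edgeR (4.57% higher), 25.4% under 0.05 without adjustment and 15.1% called by DESeq2. No member stood higher without overlap, beside 8.59% of genes. Lyve1 went from 23 ± 14 to 36 ± 16.7 CPM (0.64, interval -0.29 to 1.57), and Msr1 had the largest value at 0.71 (-0.13 to 1.54). Mrc1 and F13a1 were both at 0, with intervals of -0.68 to 0.68 and -1.01 to 1.01.

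The difference of the responses, cKO minus FL, was below 0 for all 10 members, with a median of -0.62 against 0 over all genes. It was above 0 for 9818 of all 19718 genes. Lyve1 was lowest at -1.66 (interval -2.98 to -0.33, adjusted p = 0.9997). By edgeR 0 of 10 members and 0% of genes passed, 248 genes (1.26%) and 1 member were under 0.05 without adjustment, and DESeq2 called 0. A smaller response of Lyve1 in cKO than in FL skin is therefore not shown at this depth and number. Hoxc10 was at 0 to 0.0823 CPM in all 4 cKO_UV libraries and at 0.0829 to 4.81 CPM in cKO_NoUV, and summed growing hair follicle genes were 23.1 to 340 CPM in cKO_UV and 28.7 to 8750 CPM in cKO_NoUV. Their part in these values was not tested.

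Between cKO and FL skin without UV, the members were spread around 0 (median 0.02), from -0.51 for Msr1 to 0.9 for Lyve1. By edgeR 0 of 10 members and 0% of genes were called, 928 genes (4.71%) and 0 members had an unadjusted p under 0.05, and DESeq2 called 7 genes (0.0355%) and 0 members. After UV all 10 members lay lower in cKO, with a median of -0.6 against 0 over all genes. Of all 19718 genes, 9937 lay above 0. Mrc1 was lowest in log2 value: it read 81.6, 177, 134 and 151 CPM in cKO_UV and 180, 207, 344 and 268 CPM in FL_UV, without overlap (-0.88, interval -1.56 to -0.19, adjusted p = 0.865). It was the 1 member lower without overlap, beside 1.34% of genes. By edgeR 0 of 10 members and 0% of genes were called, 1046 genes (5.3%) and 1 member had an unadjusted p under 0.05, and DESeq2 called 2 genes (0.0101%) and 0 members. In this comparison fibroblast genes had a median of -0.53 (2 of 7 above 0) and growing hair follicle genes of -3.38 (0 of 11), while muscle and fat genes had medians of 0.93 and 0.53 (6 of 6 each), and their part was not tested.

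The response of WT skin minus that of FL skin, both with intact keratinocyte Vsir but from separate experiments, was below 0 for all 10 members, from -1.46 (Timd4) to -0.28 (Cbr2). It was above 0 for 10892 of all 21851 genes. By edgeR 0 of 10 members passed, 0 were under 0.05 without adjustment and DESeq2 called 0, beside 1.2% of genes called by edgeR, 13.4% under 0.05 without adjustment and 3.22% called by DESeq2. Lyve1 stood at -0.89 with an interval of -2.12 to 0.35. Other lists lay below 0 as well, with 0 of 7 fibroblast genes above 0 (median -0.81), 0 of 6 fat genes (-0.51), 0 of 5 mast cell genes (-1.42) and 1 of 8 recruited monocyte genes (-1.22), and their part was not tested. The labels give each experiment a batch of its own, so batch and experiment cannot be told apart.

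Of 25 other resident macrophage genes, 3 were called after UV in WT skin and 7 in KO skin, beside 18.7% and 22.4% of all genes. In WT skin 1 rose and 2 fell: Cd14, a co-receptor for bacterial lipopolysaccharide, rose by 2.01, while Slc40a1, the iron exporter ferroportin, fell by 1.99 and Cx3cr1, the fractalkine receptor, fell by 1.82. After UV in KO skin 5 rose and 2 fell, among them Cd14 at 2.47, Pf4 at 1.18, Slc40a1 at -1.9 and Cx3cr1 at -1.55. The median of the list was 0.27 in WT and 0.89 in KO, beside 0.2 and 0.93 for the members. In FL skin Cd14 rose by 1.57 and nothing fell, and in cKO skin Cd14 rose by 1.1 and Slc40a1 fell by 1.28. Between KO and WT 0 of 25 were called in either condition, with medians of 0.15 without UV and 0.55 after UV. Of the 25, 17 lay above 0 without UV and 24 after UV, beside 10053 and 10713 of all 20365 genes.

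Of 19 other scavenger receptors, 2 rose after UV in WT skin and 4 rose and 1 fell in KO skin. Over all genes, 8.91% in WT and 11.3% in KO were called higher, and 18.7% and 22.4% were called in either direction. Ager, the receptor for advanced glycation end products, rose by 2.12 in WT and 2.8 in KO, and Scara5, a ferritin receptor, rose by 0.89 in WT. Cd68 and Lrp1 rose in KO by 1.09 and 0.88, and Cxcl16 fell by 0.63. None of the 17 tested in the keratinocyte experiment was called after UV in FL or cKO skin, beside 7.62% and 9.72% of all genes. Between KO and WT none of the 19 was called, beside 0.00982% without UV and 0.0442% after UV, and the medians were 0.16 and 0.21. The median of this list after UV was 0.15 in WT and 0.27 in KO.

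Among the ligands of Csf1r and the macrophage transcription factors, 9 genes in all, Irf8 fell after UV in WT and KO skin by 1.12 and 0.95, Maf fell in WT by 0.64 and Cebpa fell in KO by 0.72. Csf1, the ligand that sustains macrophages, rose after UV in KO skin by 0.66 (adjusted p = 0.0477), from 55.5 ± 4.67 to 87.9 ± 1.1 CPM, and stood at 38.7 ± 11.1 and 43.6 ± 13.1 CPM in WT skin without and after UV. It went from 37.7 ± 13.1 to 68.8 ± 17.4 CPM in FL and from 41.4 ± 7.17 to 64.4 ± 22.6 CPM in cKO skin (log2 values 0.87 and 0.64, adjusted p = 0.076 and 0.171). Il34, the ligand made by keratinocytes, had log2 values after UV of -0.59 in WT, -0.62 in KO, -1.03 in FL and -0.56 in cKO skin (adjusted p from 0.0518 to 0.26). None of the 9 was called between KO and WT or in the keratinocyte experiment.

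Some members are also read in other cells of skin, and markers of those cells are described next. Of the lymphatic endothelial list, 5 of 6 genes were tested in the whole-body experiment: Prox1, the factor that sets lymphatic identity, fell after UV in WT by 1.34 and in KO by 1.13, Reln rose by 1.13 and 0.8, and Mmrn1 rose in WT by 0.57. Ccl21a, under the identifier shared by both tables, was at 0 in all 12 libraries there. The summed list ranged from 115 to 123 CPM in WT_NoUV, 131 to 153 in WT_UV, 142 to 147 in KO_NoUV and 150 to 197 in KO_UV, and 0 of 5 were called between genotypes. Mmrn1, a lymphatic vessel protein, read 56.8 to 68 CPM in KO_NoUV and 27.2 to 45.6 CPM in WT_NoUV. For KO against WT, 4 of 5 lymphatic genes lay above 0 without UV (median 0.33) and 4 of 5 after UV (median 0.34). Of all 20365 genes, 10053 and 10713 lay above 0. The part of lymphatic vessels in the Lyve1 values was not tested.

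Of 8 recruited monocyte genes, Ccr2, the receptor that draws monocytes from blood, fell after UV by 1.57 in WT and 1.34 in KO, and Plac8 rose in KO by 2.05. The summed list lay at 69.1 to 159 CPM in WT_NoUV, 82.6 to 145 in WT_UV, 105 to 158 in KO_NoUV and 143 to 190 in KO_UV. Of 9 neutrophil genes 5 were tested, and S100a8, S100a9 and Retnlg rose in KO after UV by 2.44, 2.1 and 3.42. Retnlg rose in WT by 1.69, and over all genes 11.3% in KO and 8.91% in WT were called higher. For KO against WT, the 5 had a median of -1.71 without UV (0 above 0) and 0.05 after UV (3 above 0). The summed list lay at 13.9 to 44 CPM in WT_NoUV, 23.9 to 36.1 in WT_UV, 7.74 to 22.6 in KO_NoUV and 18.3 to 38.7 in KO_UV. The defining marker Ly6g was at 0 in all libraries of WT_NoUV and of KO_UV. In the platelet list, Ppbp rose after UV in KO by 1.43 and 2 of 4 genes were tested. Of 10 dendritic and Langerhans cell genes, 2 fell after UV in WT and 4 in KO: Ccr7 fell by 3.29 and 3.37 and Xcr1 by 1.56 and 2.64, and Zbtb46 and Clec9a fell in KO. Over all 20365 genes, 2003 fell in WT and 2252 in KO. None of the 10 dendritic and Langerhans cell genes was called in FL or cKO skin, where the medians of the list were 0.01 and 0.25. The shares of all genes called there were 7.62% and 9.72%. The part of these cells in the members' values was not tested.

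In the lists of tissue cells, the keratinocyte factor Trp63 fell after UV in all 4 genotypes, by 0.76 in WT, 1.03 in KO, 0.6 in FL and 0.49 in cKO. The vessel genes Kdr and Tek fell in WT by 0.82 and 0.9 and in KO by 0.78 and 1.22. After UV in KO skin 4 of 7 fibroblast genes rose, led by Col1a2 at 0.81, the fat hormone gene Lep rose by 0.93, and 2 of 8 growing hair follicle genes fell, Hoxc13 by 2.5 and Lef1 by 1.54. Of all 20365 genes, 2300 rose and 2252 fell in that comparison. The fibroblast gene Dpt rose in FL by 1.39, and the muscle gene Myh4 fell in WT by 0.98 and in KO by 1.06 while Acta1 rose in WT by 0.91. Of 5 mast cell genes, Kit fell in WT by 1.15 and in KO by 1.58, and 4 rose in cKO skin by 1.47 to 1.96. In cKO skin 4.57% of all genes were called higher after UV. None of these tissue lists had a called gene between genotypes by edgeR, beside 0.00982% and 0.0442% of all genes for KO against WT. For cKO against FL the share was 0%, so the absence of calls between genotypes says little about any of the lists. For KO against WT after UV, medians ran from -2 for growing hair follicle genes (0 of 8 above 0) to 0.68 for fibroblast genes (7 of 7). Keratinocyte genes were at -0.8 (0 of 7).

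**Figure D5:**
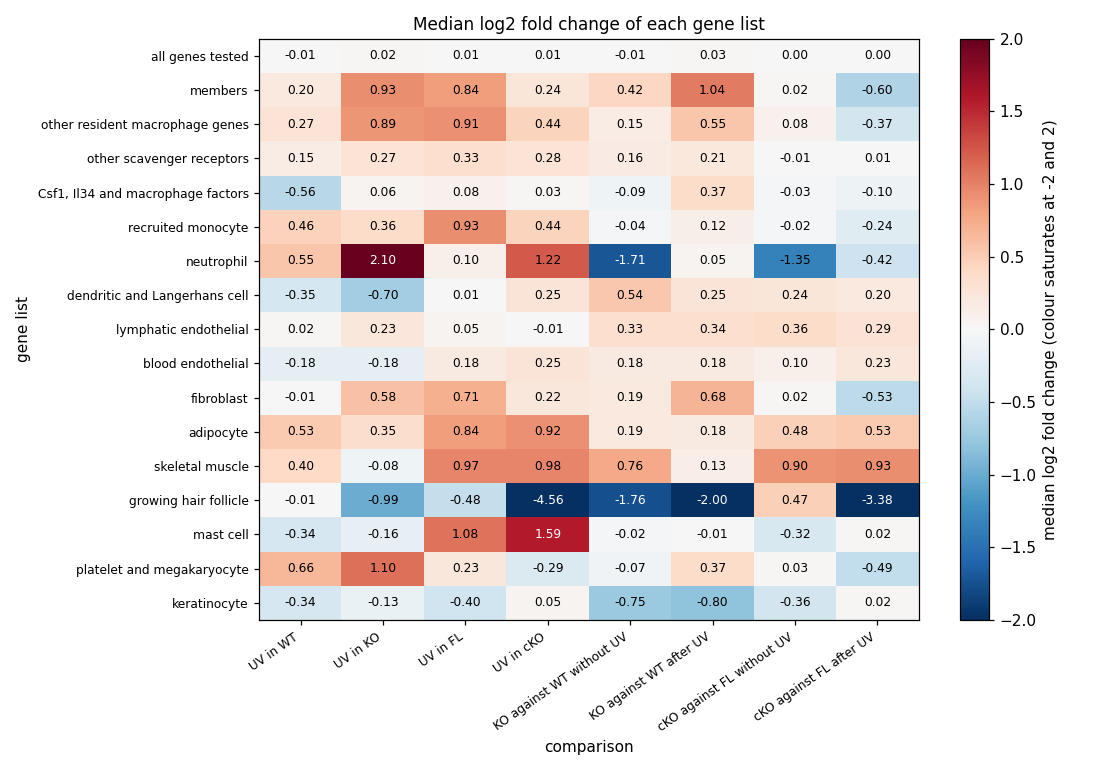
Median log2 fold change of the members, of all genes tested and of the 15 other gene lists in 8 comparisons, printed in each cell and coloured from blue (lower) to red (higher), with colour saturating at -2 and 2. The members stand at 1.04 for KO against WT after UV, 0.93 for UV in KO, 0.84 for UV in FL and -0.6 for cKO against FL after UV.

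The members followed each other over libraries to different degrees. Over 45 pairs, Pearson's r of log2 CPM ran from 0.04 to 0.95 with a median of 0.71 in the 12 whole-body libraries, and from 0.58 to 0.95 with a median of 0.79 in the 16 keratinocyte libraries. These correlations are descriptions over libraries that share group differences and tissue makeup. The 3 genes most like each member were taken by the smaller of its 2 correlations, among genes with a mean of at least 2 log2 CPM in both experiments.

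Lyve1 was closest to the chemokine genes Ccl6 (0.96 whole-body, 0.91 keratinocyte) and Ccl9 (0.92 and 0.9) and to Ly6a (0.91 and 0.88). Msr1 was closest to Itgam, the integrin CD11b (0.98 and 0.89), to Ncf1, a subunit of the phagocyte oxidase (0.9 and 0.89), and to Slfn2 (0.87 and 0.89). Timd4 had weaker partners in Ntrk2 (0.83 and 0.81), Lyve1 (0.83 and 0.8) and Pnp (0.82 and 0.79). Cbr2 was closest to Pf4 (0.98 and 0.91), Stab1 and C1qc, and Cd163 to Vegfd (0.88 and 0.88), Lrrn4cl and Ace.

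Folr2, Mrc1 and F13a1 were near each other: F13a1 was the first gene for Mrc1 (0.95 and 0.92) and the second for Folr2 (0.93 and 0.95). Folr2 was also close to Pld4 and the complement gene C1qb, Mrc1 to the Fc receptor gene Fcgr2b and to Cd84, and F13a1 to Hacd4 (0.94 and 0.96) and Aoah. Adgre1 was closest to the myeloid genes Clec4a1 (0.97 and 0.97), Ly86 and Cybb. Csf1r was closest to the lysosomal genes Man2b1 (0.91 and 0.93), Hexa (0.97 and 0.89) and Grn (0.88 and 0.91).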

How the data were processed

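RNA was depleted of ribosomal RNA and made into stranded paired libraries, per the labels' protocols. The submitters' processing notes name cutadapt 4.6, HISAT2 2.1.0 and featureCounts, and per the labels the authors deposited raw counts in 1 table per experiment. The strand setting and the treatment of multi-mapped reads are not given in the sources used here, so an overlapping gene's reads could be shared. GRCm38 is named in the notes, and 99.62% of whole-body genes sit at their GRCm38 position but only 2.76% of keratinocyte genes do, so all coordinates are those of the whole-body table.

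The count test was that of edgeR 4.0.16 (R 4.3.3; filterByExpr, TMM, robust quasi-likelihood F test, all 4 groups of an experiment in 1 fit, Benjamini-Hochberg adjustment over all genes tested), 11 comparisons in all; standard errors and 95% intervals come from that fit. CPM, and the log2 CPM behind the genes most like each member, use the same library sizes as the fit. They were first scaled by TMM over all genes, and this was changed after the values were seen; CPM moved by a few percent, some of the genes most like a member changed, and no fitted value did. The comparison of WT and FL responses joined both experiments in 1 model. Alternatives were RLE scaling, DESeq2 1.42.0, no filter, a replicate block, a hair follicle covariate, only the 2 groups compared, and leaving out libraries. Replicates of a group differed beyond sampling noise (chi-square per degree of freedom from 26.4 to 230), so none was merged. On simulated counts the fit recovered 53 of 100 genes changed by a log2 value of 1 and 93 of 100 changed by 2 for UV in WT (19868 genes), and 41 and 87 of 100 for UV in FL (19426 genes). It also called 12 unchanged genes for UV in WT and 8 for UV in FL. The simulation changed far fewer genes than the 3817 and 1502 called in the real comparisons, and drew them from genes above a floor of mean CPM. Its shares are therefore not the recovery in the real comparisons.

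The members, the 15 gene lists and the naming rule were chosen with earlier results of these data known. The rule names all members, up to 4 genes of a list with the smallest p, genes whose role the text needs, and the 3 genes most like each member. Promoter windows come from RefSeq (GRCm38.p6).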

Additional observations from a re-analysis of the deposited data

Results flagged for a closer look

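Of 40 groups of 4 libraries checked, 3 held a library far from the others, where chance gives about 1 in 20 groups. Timd4 was at 4.48 CPM in cKO_NoUV replicate 3, and the other 3 libraries lay between 0.837 and 1.08 CPM. F13a1 was at 272 CPM in FL_UV replicate 3, with the others between 154 and 174 CPM. Cbr2 was at 65 CPM in the same FL_UV library, with the others between 29.2 and 33 CPM.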

How the results depend on the processing

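Over 110 pairs of member and comparison and 2330 alternative values, 2164 kept direction and side of the threshold, 88 uncalled values changed sign, 59 lost the call, 19 gained it and 0 reversed a call. Members called in WT after UV went from 2 to 1 with only the 2 groups compared, without WT_NoUV_3 and WT_UV_3 together, and without KO_NoUV_2 and KO_UV_3 together (both pairs chosen after seeing the data). In KO after UV they went from 6 to 3 with no filter and 2 without KO_NoUV_2 and KO_UV_3. For KO against WT they went without UV from 0 to 2 with no filter and to 2 with DESeq2, and after UV from 3 to 5 with DESeq2, 5 with the hair follicle covariate and 0 without KO_NoUV_2 and KO_UV_3. In FL after UV they went from 1 to 2 with DESeq2 and 3 with the hair follicle covariate; the cause was not tested for any of these. Leaving out 1 library at a time gave 1 to 2 called members for UV in WT, 2 to 6 for UV in KO, 0 to 1 and 0 to 3 for KO against WT without and after UV, 1 to 3 for UV in FL, and 0 in the other comparisons.

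With replicate numbers as a block, members called in FL after UV went from 1 to 3 (Msr1 and Cd163 added) and Folr2 lost its call in KO (adjusted p = 0.0516). Same-numbered libraries correlated at -0.38 to 0.33 (11 of 18 pairs over 0.1) in the whole-body and -0.24 to 0.53 (13 of 24 pairs) in the keratinocyte experiment. There, 6 of 12 and 10 of 16 libraries correlated best with their own number. The labels name no pairing, so the main fit did not treat same-numbered libraries as paired, and what they share was not tested. Lyve1 kept its call in 20 of 20 alternatives for UV in KO, 23 of 23 for UV in FL and 19 of 20 for UV in WT. The list was drawn up with results of these libraries in view, so the kept calls are no independent support. The largest shift of the median of all genes under another scaling was from -0.001 to 0.024, for the WT response minus the FL response. Timd4 rests on 3 counts in its shallowest library, which limits its values in the keratinocyte experiment.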
